A study of Mus musculus with 30 samples.

Results

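The endothelium of the mouse liver was followed through 10 genes, Cd34, Eng, Stab1, Stab2, Lyve1, Pecam1, Kdr, Clec4g, Cdh5 and Tek, in animals with and without carbon black nanoparticles in the lung. The genes were chosen by name as markers of sinusoidal or vascular endothelial cells, and each was read from the array probes whose RefSeq transcript belongs to it. All 10 were detected and tested, among 12225 named genes, through 13 of 23607 tested probes. Stab1, Lyve1 and Cdh5 have 2 probes each, and values below are those of the brighter probe unless the second is named.

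Blood in the liver flows through sinusoids, capillaries lined by a thin, fenestrated endothelium that has no ordinary basement membrane. Sinusoidal endothelial cells clear waste molecules from the blood through scavenger and lectin receptors, here Stab1, Stab2, Lyve1 and Clec4g. Genes shared with the endothelium of other vessels encode adhesion and junction proteins (Cd34, Pecam1, Cdh5) and receptors for growth factors that maintain vessels (Kdr, Tek, Eng).

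Liver RNA came from female C57BL/6 mice, which were acquired aged 5 to 6 weeks. The control group held 16 mice whose treatment is labelled none. The exposed group held 14 mice that received Printex 90, which is carbon black of nanoparticle size, by instillation of 0.162 mg into the trachea, suspended in saline with cell-free lung lavage fluid. The labels used here give neither the time from instillation to sampling nor a vehicle for the controls, while the deposited design mentions 6 mice in each group. Each mouse had 1 two-colour Agilent array, with its liver RNA in Cy5 and a universal mouse reference RNA in Cy3, so a level is the log2 ratio of liver over reference at a probe and levels of different probes are not compared. Animal numbers form 3 runs in each group. In controls, run 1 spans animals 547 to 552 (n = 6), run 2 animals 570 to 575 (n = 5) and run 3 animals 595 to 600 (n = 5). In exposed animals, run 1 spans 176 to 180 (n = 4), run 2 spans 193 to 197 (n = 5) and run 3 spans 212 to 216 (n = 5). What separates the runs is not in the labels, and nothing there ties a run of one group to a run of the other.

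The arrays lay on 9 slides, of which 7 held both groups, and median Cy5 signals ranged from 104 to 196 between arrays. Controls lay at slide positions 1 and 2 and exposed animals at positions 3 and 4, so group and position cannot be told apart. Within each group, run 1 lay first and run 3 last of its pair of positions. Precision is limited by how many arrays there were.

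The endothelial label held at the level of detection. Liver Cy5 signal was well above background on 30 of 30 arrays for 9 of the genes and on 29 arrays for Pecam1. Of the other endothelial genes listed for comparison, 23 of 24 sinusoidal and 34 of 35 pan-endothelial genes were detected often enough to be tested. Mean levels over all animals were above the reference for 9 genes. Clec4g, the sinusoidal lectin LSECtin, stood 44.6-fold above the reference RNA at its probe, with a mean log2 ratio of 5.48 ± 0.57 (SD, n = 30). Kdr, the main VEGF receptor of endothelium, lay at 4.30 ± 0.47 (SD, n = 30). Cd34, a sialomucin of capillary endothelium and blood progenitors, was the exception, at -3.06 ± 0.30 (SD, n = 29), since its reference signal was strong, with a median intensity of 7562 against 1212 in liver. The reference signal was well above background on only 2, 5, 1 and 18 of 30 arrays for Lyve1, Cdh5, Tek and Kdr, so the size of their ratios is limited by the reference background. Differences between animals in these genes carry that background too, and their size depended on how the arrays were corrected and scaled.

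Nanoparticle exposure as a whole left no difference in these genes that passed the test. Exposed minus control, 0 of 10 genes were called (moderated test of limma, adjusted p under 0.05 over all probes), beside 0.0164% of all named genes, and 0 had an unadjusted p under 0.05. Tek, the angiopoietin receptor, had the highest difference, 0.14 ± 0.11 (SE; 95% interval -0.10 to 0.37; adjusted p = 0.676). Cd34 had the lowest, -0.12 ± 0.10 (SE; 95% interval -0.31 to 0.08; adjusted p = 0.671). The other 8 genes lay between -0.0044 for Lyve1 and 0.05 for Stab1, with adjusted p of at least 0.88. The intervals were narrow for Pecam1, from -0.07 to 0.13, and wide for Cdh5, from -0.42 to 0.46, and for Lyve1, from -0.45 to 0.44. Differences within those limits are not excluded by these data, and the limits do not give the smallest difference that would be called. Pecam1 had a low liver signal, with a median Cy5 intensity of 148.5, at which changes in the ratio can be understated. Its narrow interval is therefore not a tight limit on change. The median of the 10 differences was 0.02, and that of all named genes was close to 0. On the 7 slides that held both groups, Eng was higher in exposed animals on 5 and lower on 2, and Cd34 was higher on 3 and lower on 4. Whole liver was measured, so fewer endothelial cells and less RNA per endothelial cell cannot be told apart in any of these comparisons.

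Within the exposed group the runs differed, and run 1 stood lowest for most of the endothelial genes. Of the 6 run means, that of exposed run 1 was the lowest for 9 of 10 genes, and Clec4g was the exception, with exposed run 2 lowest. The share of all named genes lowest in exposed run 1 was not counted. The 10 genes also varied together on the same 4 arrays of that run, so they are not separate observations. A moderated F test among the 3 exposed runs called 2 of 10 genes, Eng (adjusted p = 0.0138) and Cd34 (adjusted p = 0.0425), beside 5.19% of all named genes. Against all controls, exposed run 1 was called lower for the same 2 of 10 genes, beside 4.55% of named genes called lower, 1.53% called higher and 6.08% called in either direction. The point estimates of all 10 genes lay below 0, with a median of -0.34 against -0.04 for all named genes. Without exposed animal 176, 8 of 10 lay below 0, Kdr and Clec4g being above it, and the median was -0.19. With the scanner software's ratio the median was -0.13. The direction also depended on the scaling for 4 genes: Stab2 and Clec4g turned above 0 without background correction and in the authors' value table, and Stab2, Kdr, Clec4g and Tek did so with plain background subtraction and with the scanner software's own ratio.

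**Figure D1:**
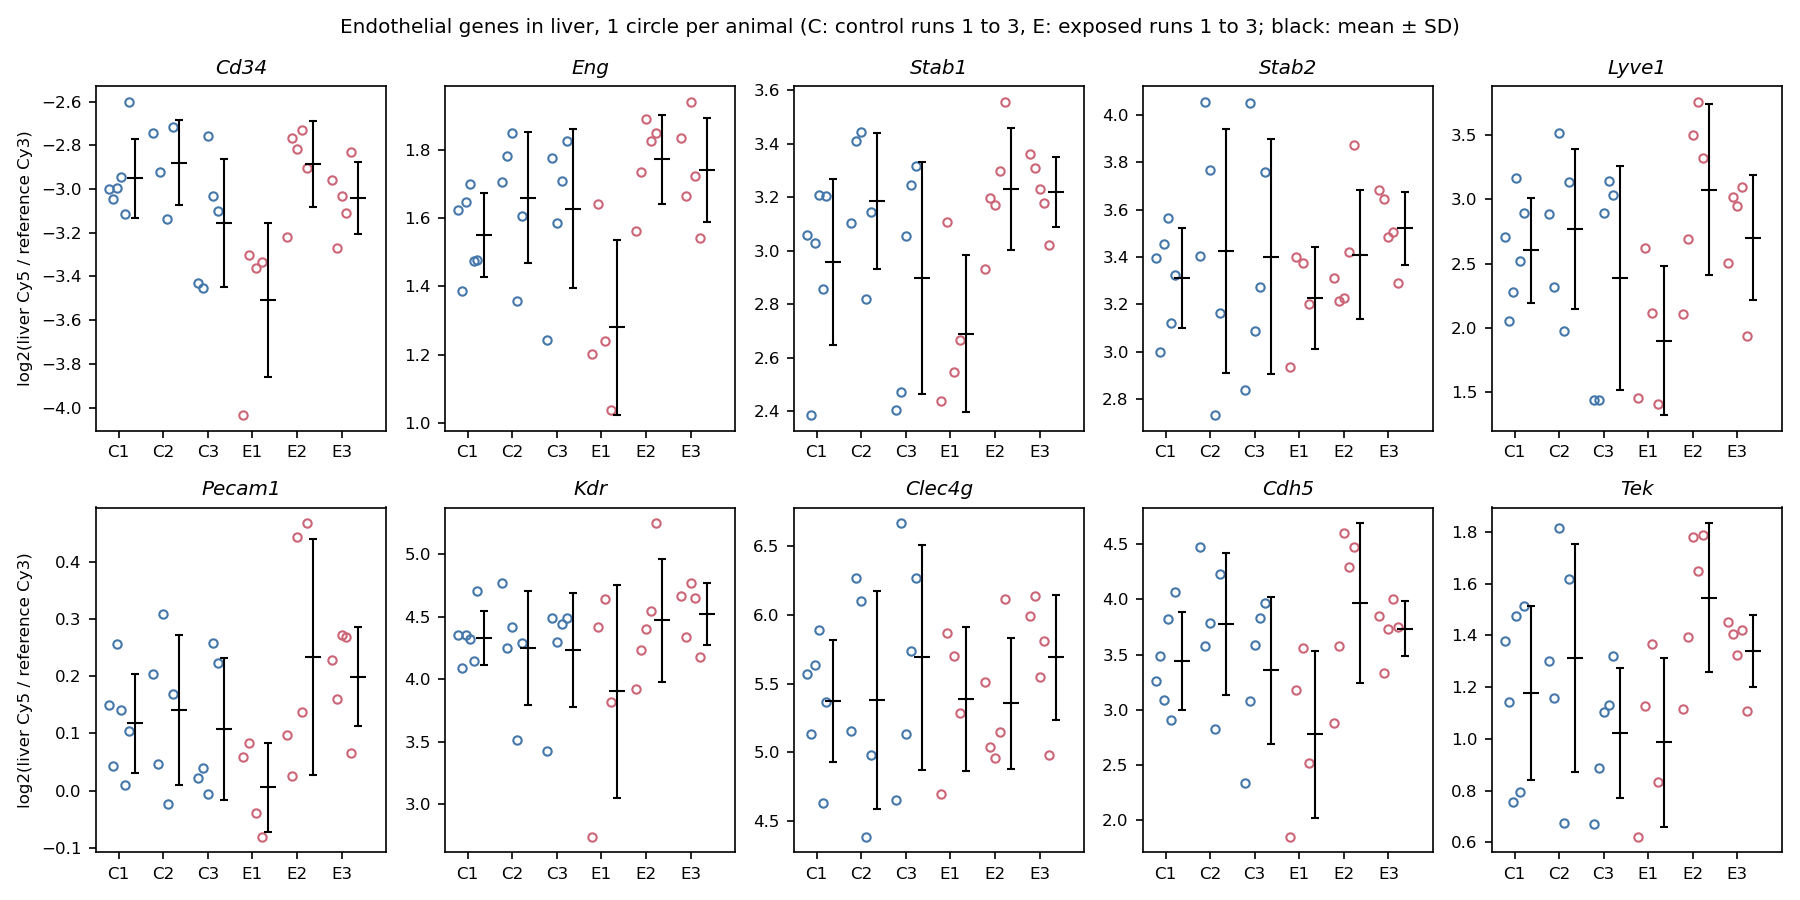
Log2 ratio of liver Cy5 over reference Cy3 for the 10 endothelial genes, 1 circle per animal, by control run (C1 to C3, blue) and exposed run (E1 to E3, red), with the mean and SD of each run in black; each panel has its own axis. In exposed run 1 the 4 Cd34 values lie between -4.04 and -3.30, below all 10 values of the other exposed runs, and 1 of the 4 lies below all controls.

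Cd34 and Eng carried the called differences. In the 4 animals of exposed run 1, the log2 ratio of Cd34 was -4.04 in animal 176, -3.30 in 177, -3.36 in 179 and -3.34 in 180. The 5 animals of exposed run 2 had -3.22, -2.77, -2.81, -2.73 and -2.90, and the 5 of run 3 had -2.96, -3.27, -3.03, -3.11 and -2.83. The 15 controls with a value ranged from -3.45 to -2.60 around a median of -3.00, and control 572 is missing because the scanner software marked its spot as an outlier. All 4 animals of run 1 thus lay below all 10 of the other exposed runs and below the control median, but 3 of the 4 lay inside the range of the controls. The fitted difference of run 1 from the controls was -0.48 ± 0.12 (SE; adjusted p = 0.019), a level 1.40-fold lower. Exposed run 1 was also 1.49-fold lower than run 2 (difference -0.58 ± 0.15 SE, adjusted p = 0.0195), and its difference from run 3, -0.45 ± 0.14 (SE), had an adjusted p of 0.0974.

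Eng encodes endoglin, an accessory receptor for TGF-beta family ligands on endothelial cells. Its log2 ratio in exposed run 1 was 1.20 in animal 176, 1.64 in 177, 1.24 in 179 and 1.04 in 180. Run 2 gave 1.56, 1.74, 1.89, 1.83 and 1.85, and run 3 gave 1.83, 1.67, 1.94, 1.72 and 1.54. The 16 controls ranged from 1.24 to 1.85 around a median of 1.64. Animals 176, 179 and 180 lay below every control and every other exposed animal, whereas 177 lay inside both ranges. The difference of run 1 from the controls was -0.34 ± 0.10 (SE; adjusted p = 0.0364), or 1.27-fold lower. Eng was also lower in run 1 than in run 2, by a difference of -0.52 ± 0.12 (SE; adjusted p = 0.00938), and than in run 3, by -0.47 ± 0.11 (SE; adjusted p = 0.0284). Between exposed runs 1 and 2, 7.65% of all named genes were called, 6.15% lower in run 1 and 1.5% higher. Between runs 1 and 3, 2.29% were called, 1.57% lower in run 1 and 0.72% higher. Between runs 2 and 3, none of the 10 genes was called (smallest adjusted p = 0.882), beside 0.0245% of named genes.

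Single animals decided these calls. Without exposed animal 176, the difference of run 1 from the controls was -0.31 for both genes and neither passed (adjusted p = 0.186 for Cd34 and 0.149 for Eng). The call of Eng also ended without exposed 179 or 180 (adjusted p = 0.077 and 0.186) and without control 550, 573, 599 or 600 (adjusted p from 0.0519 to 0.056). For the F test, Eng lost its call without 176 or 180 (adjusted p = 0.0744 and 0.0824), and Cd34 lost it without any of 13 animals (controls 550 and 599, and exposed 176, 177, 179, 180, 194, 195, 196, 197, 212, 214 and 215), with adjusted p from 0.0508 to 0.258. Slide was a second limit. Each array of run 1 shared its slide with 1 exposed array of another run and 2 controls. On all 4 slides, Cd34 and Eng were lower in the run 1 animal than in that exposed animal and the mean of those controls. The run 1 arrays all lay at position 3 and those other exposed arrays at position 4. Run and position therefore cannot be told apart within these slides. The mean within-slide difference from the controls was -0.45 for Cd34 and -0.34 for Eng. With slide as a fixed term in the fit, the differences were -0.42 and -0.35 and the adjusted p rose to 0.0875 and 0.0874. With position in the pair as an added term, they were -0.42 and -0.31 with adjusted p of 0.192 and 0.218.

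The stretches just upstream of both genes are given to show the sequence that lies before the 2 called genes. They hold the 250 bases before the annotated start in RefSeq (mouse build GRCm38.p6), 5′ to 3′ on the strand of the gene, at chr1:194938571-194938820 for Cd34 and chr2:32646345-32646594 for Eng, both on the plus strand. Capitals mark AGGAAG, a core recognised by ETS factors, which take part in endothelial gene expression, or its reverse complement CTTCCT.
Cd34: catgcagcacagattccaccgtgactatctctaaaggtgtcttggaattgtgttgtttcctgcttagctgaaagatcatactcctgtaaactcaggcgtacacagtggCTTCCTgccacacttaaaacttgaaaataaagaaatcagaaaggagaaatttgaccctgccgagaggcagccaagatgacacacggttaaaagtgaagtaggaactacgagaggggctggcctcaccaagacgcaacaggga
Eng: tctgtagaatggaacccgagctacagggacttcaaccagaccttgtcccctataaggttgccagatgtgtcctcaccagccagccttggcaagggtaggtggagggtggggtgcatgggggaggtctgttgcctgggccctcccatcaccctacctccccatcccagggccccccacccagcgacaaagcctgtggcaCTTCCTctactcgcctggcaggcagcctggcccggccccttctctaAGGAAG
In the Cd34 stretch the motif begins 142 bases before the start, on the minus strand. The Eng stretch has 2 matches, beginning 52 bases before the start on the minus strand and 6 bases before it on the plus strand. RefSeq start sites were matched for 7 of the 10 genes, the others being Lyve1, Pecam1 and Cdh5. The capitalised core was present on either strand in 5 of these 7, against 29.5% of 32851 mouse promoters of the same length. CGGAAG, another ETS core, was in 1 of 7 against 13.6%. AGATAA, a form of the GATA core, was in 0 of 7 against 10.0%, searched on both strands. Other forms of the GATA core were not searched. A match describes the letters only, and the arrays measured no binding.

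The junction genes and growth factor receptors pointed the same way in run 1 but were not called. Cdh5, the VE-cadherin of endothelial junctions, had log2 ratios of 1.85, 3.18, 3.56 and 2.51 in animals 176, 177, 179 and 180, against 2.33 to 4.48 in controls (median 3.58) and 2.88 to 4.60 in the 10 other exposed animals (median 3.80). All 4 values were under the control median and 1 was under the control range. The fitted difference from the controls was -0.72 ± 0.30 (SE; adjusted p = 0.169), but -0.38 without animal 176 and -0.04 with the scanner software's ratio, which also took the span of the exposed run means from 1.13 to 0.12. The second Cdh5 probe gave -0.39 ± 0.12 (SE; adjusted p = 0.057) against the controls. Among exposed runs it passed the F test (adjusted p = 0.0325) where the brighter probe did not (adjusted p = 0.116). It was dim, with a median Cy5 intensity of 159.5 against 804 for the brighter probe. Its reference signal was well above background on only 2 of 30 arrays, so low signal limits its call. Pecam1, an adhesion molecule at the same junctions, had 0.06, 0.08, -0.04 and -0.08 in these 4 animals and ranged from -0.02 to 0.31 in controls. Its difference was -0.13 ± 0.07 (SE; adjusted p = 0.299).

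Kdr had the largest SD of the 10 genes within exposed run 1, 0.85 (n = 4), with a log2 ratio of 2.74 in animal 176, 4.42 in 177, 4.64 in 179 and 3.82 in 180. Animal 176 was lower than all controls, which ranged from 3.43 to 4.77, while the other 3 lay within that range. The difference from the controls was -0.36 ± 0.24 (SE; adjusted p = 0.448), and without animal 176 it was 0.04 (adjusted p = 0.962). Tek had 0.62, 1.13, 1.37 and 0.83 in run 1, against 0.67 to 1.82 in controls. It differed from the controls by -0.20 ± 0.16 (SE; adjusted p = 0.562) in run 1 and by 0.36 ± 0.15 (SE; adjusted p = 0.39) in run 2, where it was the only gene of the 10 with an unadjusted p under 0.05.

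**Figure D2:**
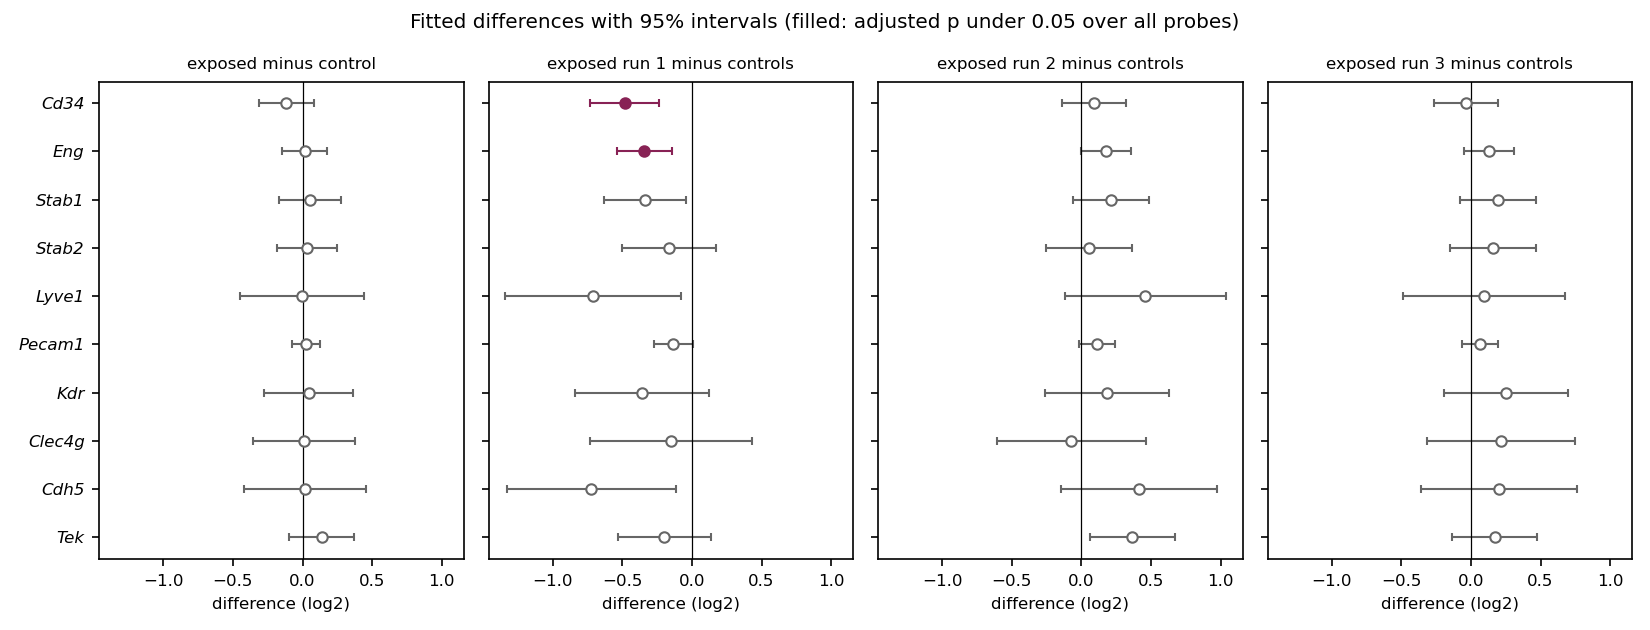
Fitted log2 differences from the controls with 95% intervals for all exposed animals and for each exposed run, 1 row per gene; filled points passed an adjusted p of 0.05 over all probes. Only Cd34 and Eng in exposed run 1 are filled, at -0.48 and -0.34, and the 3 run panels share the same 16 controls.

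Among the sinusoidal receptors, none was called. Stab1, the scavenger receptor stabilin-1, had 2.44, 3.11, 2.55 and 2.67 in the 4 animals of run 1, against 2.38 to 3.44 in controls and 2.93 to 3.56 in the other exposed animals. Its difference from the controls was -0.34 ± 0.15 (SE; adjusted p = 0.192). The second Stab1 probe showed 0.0044 ± 0.09 (SE; adjusted p = 0.99). It was dim, with a median Cy5 intensity of 130.75 against 1816.5 for the brighter probe. At so low a signal a change could be missed, so this value neither backs nor contradicts the brighter probe. Lyve1, a hyaluronan receptor of sinusoidal and lymphatic endothelium, had 1.46, 2.62, 2.12 and 1.41 in run 1, against 1.44 to 3.52 in controls. All 4 lay below the control median of 2.79, and animal 180 lay just below the lowest controls, 595 and 596, at 1.44 each, but the difference of -0.71 ± 0.31 (SE) had an adjusted p of 0.197. Its second probe gave -0.21 ± 0.14 (SE; adjusted p = 0.424). That probe was also dim, with a median Cy5 intensity of 126 against 455.75, so its value neither backs nor contradicts the brighter probe.

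In exposed run 1, Stab2, stabilin-2, the hyaluronan clearance receptor of sinusoids, and Clec4g stayed within the control range, as did Stab1. Stab2 had 2.93, 3.40, 3.37 and 3.20 in exposed run 1, all within the control range of 2.73 to 4.06. It differed from the controls by -0.16 ± 0.16 (SE; 95% interval -0.50 to 0.17; adjusted p = 0.658). Clec4g had 4.69, 5.87, 5.70 and 5.28, within the control range of 4.38 to 6.67, and differed by -0.15 ± 0.28 (SE; 95% interval -0.73 to 0.43; adjusted p = 0.834). In exposed runs 2 and 3, 0 of 10 genes were called against the controls, beside 0.00818% and 0.139% of named genes. Of the 10 point estimates, 9 lay above 0 in each of these runs, Clec4g being below 0 in run 2 and Cd34 in run 3. With plain background subtraction those counts were 7 and 4, and with the scanner software's ratio 5 and 4. These 3 comparisons share their controls and are given side by side for that reason.

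The runs of the control animals gave a reference for variation without exposure. None of the 10 genes was called among control runs (F test of limma, smallest adjusted p = 0.857, 0 with an unadjusted p under 0.05), beside 0.106% of named genes. In pairwise comparisons of control runs, 0 of 10 were called either (smallest adjusted p = 0.806), beside 0.09%, 0.0327% and 0.0245% of named genes for runs 1 and 2, runs 1 and 3, and runs 2 and 3. Between control runs, the largest difference was that of Cdh5, 0.40 between the highest and lowest run mean, compared with 1.13 between exposed runs. That contrast depended on the processing. Over the alternatives, the span of Cdh5 was 0.28 to 0.66 between control runs and 0.12 to 1.42 between exposed runs. Cd34 spanned 0.23 between control runs and 0.58 between exposed runs, and Eng spanned 0.12 and 0.52. Ordered by level, the run means of Cd34 and of Eng were each separated by more than the larger SD only at the bottom, between exposed run 1 and the next run. For the other 8 genes, no neighbouring run means were further apart than the larger of their SDs. Against single control runs, the difference of exposed run 1 in Cd34 was -0.53, -0.58 and -0.34 for control runs 1, 2 and 3 (adjusted p = 0.0959, 0.0335 and 0.21). For Eng it was -0.28, -0.40 and -0.35 (adjusted p = 0.314, 0.0535 and 0.0878).

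The reference channel and array signal were set beside these results. In Cy3 alone no probe of the 10 genes passed the test in any of the 6 comparisons, and the Cy3 difference of exposed run 1 from the controls was 0.04 ± 0.09 (SE) for Cd34 and 0.12 ± 0.08 (SE) for Eng. In Cy5 alone, the run 1 difference of Cd34 was -0.35 (adjusted p = 0.237) and that of Eng -0.20 (adjusted p = 0.345). The median Cy5 signal of the 4 run 1 arrays was 104 to 119.5, at the low end of the 104 to 196 over all arrays, and their median share of probes above background was 52.4%, against 56.0% over all arrays. The part of array signal in the run 1 result was not tested.

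The 10 genes varied together from animal to animal. Over the 45 pairs of genes, Pearson's r across animals was above 0 in 44, with a median of 0.637, where the median over all pairs of 11600 named genes was 0.0419 and their upper quartile 0.229. Both genes of a pair were read from the same array, and so share its RNA, slide and dye signal. After subtracting each slide's mean, the median of the 45 pairs was 0.757. The median over all named genes was not taken within slides, so this value has no such reference. Stab2 and Clec4g formed the closest pair, with r = 0.918 and Spearman's rho = 0.903 over 30 animals (permutation p = 1e-05 for each, the smallest that the resampling can give, and 4.5e-05 adjusted over the 45 pairs). Without the 2 animals farthest from the median of Stab2 their r was 0.9, and within slides it was 0.903. Cdh5 and Tek followed, with r = 0.846 and rho = 0.798 (same permutation p), 0.802 without the 2 farthest animals and 0.892 within slides. The permutations shuffled animals freely over slides, groups and runs, so their p-values do not allow for offsets shared within a slide or run.

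Cd34 and Clec4g showed a relation within slides that was not seen over all animals. Over 29 animals their r was -0.0368 and rho -0.125 (permutation p = 0.85 and 0.514, the first 0.85 after adjustment over the 45 pairs), and without the 2 farthest animals r was -0.274. After subtracting slide means r was 0.777. That value was not recomputed without single animals. On slide 2, exposed animal 176 lay below exposed animal 213 in both genes, at -4.04 against -3.27 for Cd34 and 4.69 against 6.14 for Clec4g. The r of Cd34 with Stab2 was 0.131 over all animals and 0.727 within slides, and that of Clec4g with Cdh5 was 0.269 and 0.809. On slide 9, for example, control 574 had the lowest Clec4g of that slide at 4.38 and the lowest Cd34 at -3.14.

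**Figure D3:**
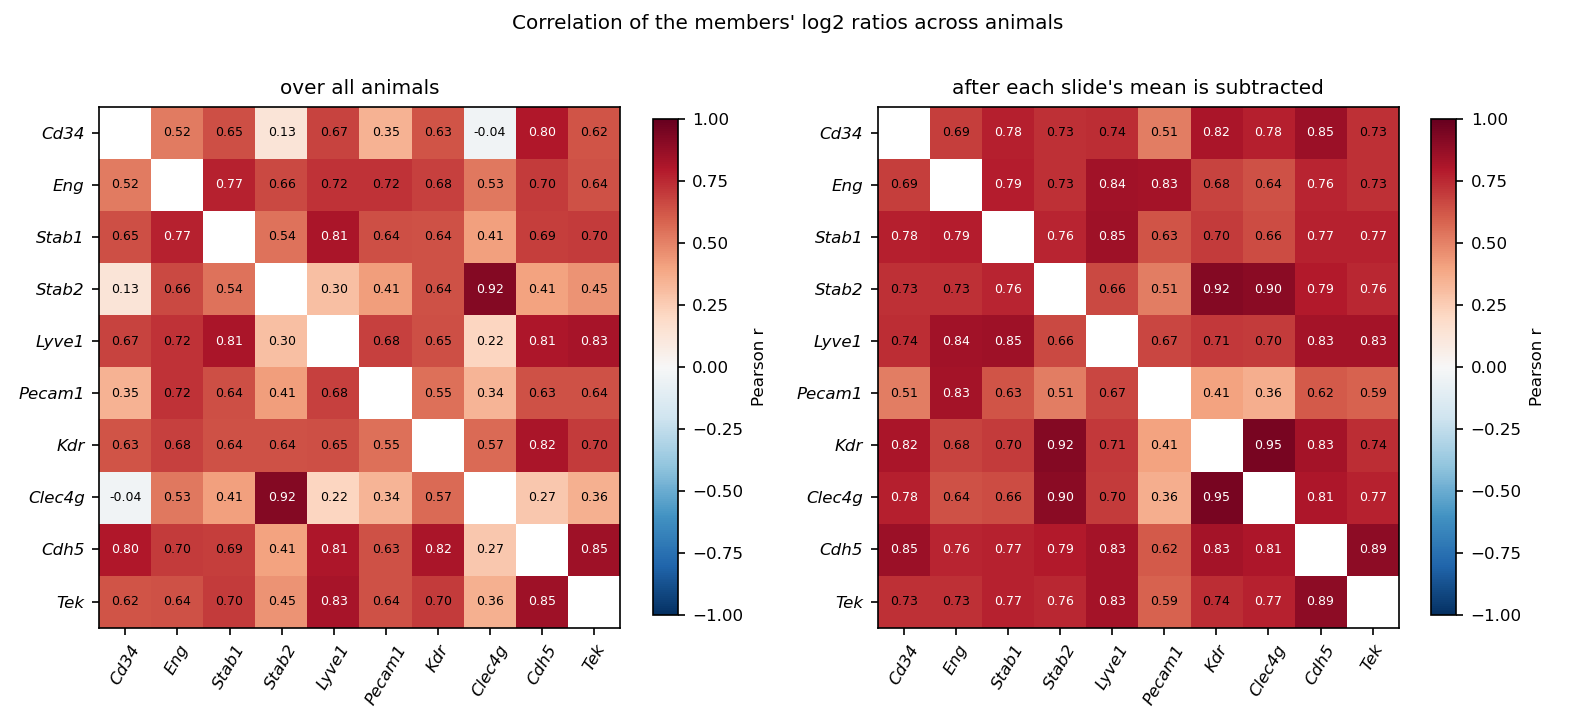
Pearson's r between the log2 ratios of each pair of the 10 endothelial genes, over all animals (left) and after the mean of each slide was subtracted (right); red is positive, blue negative. The lowest value at left is -0.04 for Cd34 with Clec4g, which reads 0.78 at right.

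**Figure D4:**
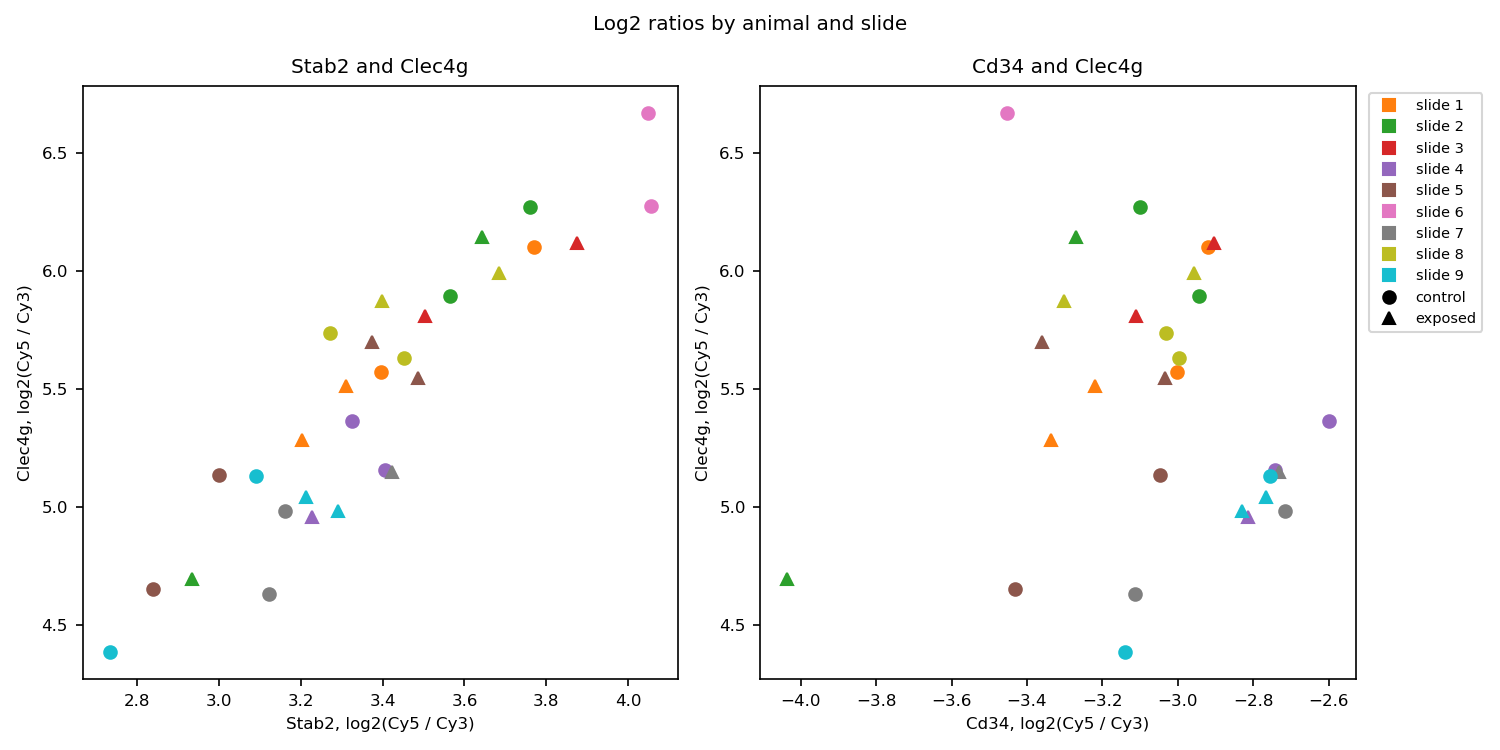
Log2 ratios of Clec4g against Stab2 (left) and against Cd34 (right), 1 point per animal, coloured by slide, with circles for controls and triangles for exposed animals. Clec4g rises with Stab2 across all slides (r = 0.918), while against Cd34 the slides are offset from one another and r is -0.0368 over all animals and 0.777 within slides.

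Upstream of Stab2 and Clec4g, the closest pair, the 250 bases before the RefSeq start also hold the ETS core. They lie on the minus strand of GRCm38.p6, at chr10:87007943-87008192 for Stab2 and chr8:3720652-3720901 for Clec4g, and are printed 5′ to 3′ along the gene with AGGAAG or CTTCCT in capitals.
Stab2: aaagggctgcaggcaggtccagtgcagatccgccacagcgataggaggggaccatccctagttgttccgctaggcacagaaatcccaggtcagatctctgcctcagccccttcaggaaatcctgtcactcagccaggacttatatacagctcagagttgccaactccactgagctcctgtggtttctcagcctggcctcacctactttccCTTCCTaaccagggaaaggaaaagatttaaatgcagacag
Clec4g: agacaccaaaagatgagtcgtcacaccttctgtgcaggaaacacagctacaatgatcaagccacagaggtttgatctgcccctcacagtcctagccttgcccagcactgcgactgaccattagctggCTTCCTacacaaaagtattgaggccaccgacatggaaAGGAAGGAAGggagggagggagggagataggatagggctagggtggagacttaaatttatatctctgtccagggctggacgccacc
In Stab2 the motif begins 40 bases before the start on the opposite strand. Clec4g has matches beginning 123, 86 and 82 bases before the start, the last 2 overlapping.

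The genes outside the 10 whose levels followed Cd34 and Eng most closely were taken from 12215 named genes. For Cd34 these were Incenp (r = 0.926), a chromosomal passenger protein, Pcolce (0.914), an enhancer of procollagen processing, Eva1b (0.9), the intermediate filament gene Vim (0.9) and Fxyd5 (0.899), over 29 animals. For Eng they were Igfbp7 (r = 0.888), a secreted protein abundant in vascular endothelium, Adgrg3 (0.874), Ehd3 (0.841), Septin4 (0.84) and Sema6d (0.834), over 30 animals. Ehd3 is in the list of other sinusoidal genes. All were picked over the same animals as Cd34 and Eng, exposed run 1 included, so their level in that run is not given as a result. The other members ranked unevenly in these lists, since Stab1 correlated with Eng more than 99.8% of the named genes did, whereas Clec4g correlated with Cd34 more than 28.5% did.

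Other endothelial genes were read from lists in the same way, and their counts in exposed run 1 stand beside the 4.55% of all named genes called lower there. In exposed run 1 against the controls, 0 of 23 other sinusoidal genes were called and 19 of 23 pointed lower, with a median of -0.16. The smallest p of that list belonged to the transcription factor Maf, -0.26 ± 0.09 (SE; adjusted p = 0.109), and to Wnt9b, a Wnt ligand of liver endothelium, -0.26 ± 0.10 (SE; adjusted p = 0.121). Of 34 other pan-endothelial genes, 1 was lower, the adhesion molecule Icam2, by -0.49 ± 0.11 (SE; adjusted p = 0.0108), and 30 pointed lower, with a median of -0.23. Of 15 genes of veins, lymphatics and endothelial activation, 1 was lower, Ltbp4, which binds latent TGF-beta, by -0.48 ± 0.11 (SE; adjusted p = 0.00868). Of 14 vascular ligands, 1 was lower, Vegfc, the lymphatic growth factor, by -0.38 ± 0.07 (SE; adjusted p = 0.00223). The medians of these last lists were both -0.05, near the -0.04 of all named genes.

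Among the exposed runs, where 5.19% of all named genes were called, the F test called 0 of 23 sinusoidal genes (Mrc1, the mannose receptor, adjusted p = 0.0746, and Oit3, adjusted p = 0.0786), 3 of 34 pan-endothelial genes (Icam2, adjusted p = 0.0114, the water channel Aqp1, 0.0307, and Adgrl4, 0.0411), Ltbp4 (0.0121) and Vegfc (0.0342). No gene of the 4 lists was called for exposed minus control, for exposed run 2 or 3, or among control runs. For exposed minus control, the smallest p-values belonged to Cav1 (-0.33, adjusted p = 0.146), the gene of caveolin, and Hey1 (-0.19, 0.24), Nrp1 (0.32, 0.268) and Bmp2 (0.30, 0.422), Vegfc (-0.19, 0.174) and Angptl4 (0.86, 0.254), and Klf2, a flow-responsive transcription factor (0.31, 0.219), and Procr (-0.12, 0.374). In exposed run 2 they were Hey1 (-0.35, 0.139) and Aqp1 (0.33, 0.361), Nrp1 (0.44, 0.354) and Flt4 (0.16, 0.372), Hgf (0.34, 0.261) and Pgf (0.27, 0.351), and Klf2 (0.37, 0.344) and Klf4 (0.29, 0.488). In exposed run 3 they were Cav1 (-0.38, 0.192) and Aqp1 (0.36, 0.214), Bmp2 (0.50, 0.284) and Cd209b (0.27, 0.3), Bmp6 (0.32, 0.136) and Angptl4 (1.15, 0.197), and Efnb2 (-0.19, 0.207) and Klf2 (0.37, 0.252). Among control runs they were Ets1 (adjusted p = 0.567) and Icam2 (0.643), Fcna (0.788) and Cd209b (0.807), Angptl4 (0.614) and Vegfb (0.828), and Vcam1 (0.683) and Ephb4 (0.715).

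**Figure D5:**
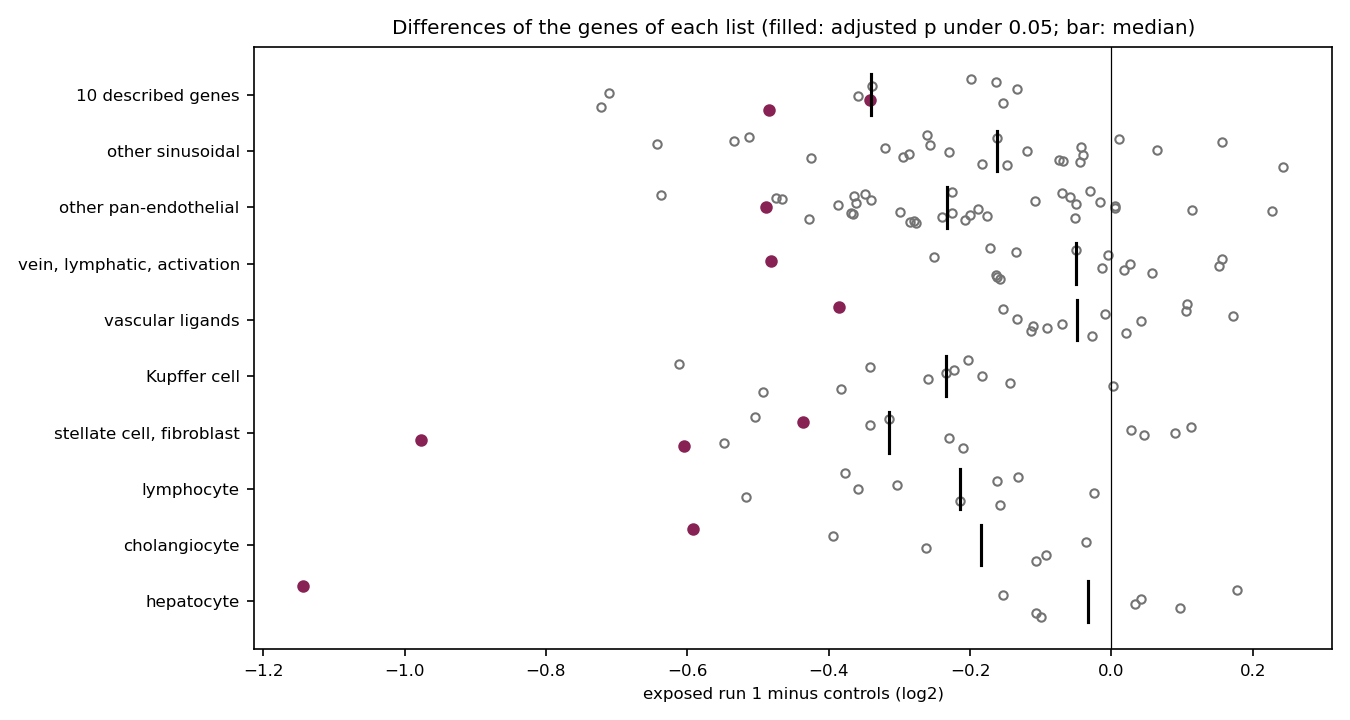
Log2 differences of exposed run 1 from the controls for the genes of each list, 1 circle per gene, filled where the adjusted p is under 0.05, with the list's median as a black bar. The median of the 10 endothelial genes lies at -0.34, that of the stellate cell and fibroblast list at -0.315, and that of the hepatocyte list at -0.03.

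Some markers of other liver cells were also lower in exposed run 1, in which 4.55% of all named genes were called lower and 1.53% higher. Of 13 stellate cell and fibroblast genes, 9 pointed lower and 4 higher, with a median of -0.315. Of these, 3 were called lower, the collagens Col3a1 (-0.98, adjusted p = 0.00323) and Col1a1 (-0.61, adjusted p = 0.0433) and the PDGF receptor Pdgfrb (-0.44, adjusted p = 0.0212). The mean level of that list ranged from -0.86 to 0.01 in exposed run 1 and from -0.52 to 0.35 in controls. Of 11 Kupffer cell and macrophage genes, 0 were called and 10 pointed lower, with a median of -0.23, and their mean level was 2.78 to 3.50 in run 1 and 2.73 to 3.93 in controls. Of 9 lymphocyte genes, 0 were called and 9 pointed lower, with a median of -0.21. Of 6 bile duct genes, Spp1 was called lower (-0.59, adjusted p = 0.0462), and of 8 hepatocyte genes Ttr (-1.14, adjusted p = 0.00802). All 6 bile duct genes pointed lower, while 4 hepatocyte genes pointed lower and 4 higher, with a median of -0.03. Of 3 neutrophil genes tested, 0 were called and 2 pointed higher, S100a9 by 0.65 (adjusted p = 0.268) and S100a8 by 0.27 (adjusted p = 0.187). None of 5 platelet, 3 erythroid and 4 mesothelial genes was called (smallest adjusted p = 0.266, 0.279 and 0.275). Not all listed markers reached the filter on signal above background, which 9 of 11 lymphocyte and 3 of 8 neutrophil genes on the array passed. The part of these markers in the endothelial result was not tested.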

How the data were processed

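Liver RNA of 30 mice was measured, 1 two-colour array each. The authors deposited scanner output with Cy5 and Cy3 intensity per spot, and per the file headers it was made with Agilent Feature Extraction, version 10.7.3.1 for 25 arrays and 10.1.1.1 for 5. That software's log10 ratio of red over green is per the file headers too, and the authors' value table holds log2 ratios that matched the array of the same animal for 30 of 30 columns. Its values were used as alternatives only.

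Intensities were background-corrected (normexp, offset 50) and normalized by loess within arrays, with control spots at weight 0, in limma 3.58.1 (R 4.3.3). Of 41174 probes, 23607 were tested, those whose Cy5 signal stood above background on 14 or more of the 30 arrays. Moderated tests with slide as a random block (correlation 0.159 for 2 groups and 0.147 for 6 runs) were adjusted by Benjamini-Hochberg over all tested probes, two-sided, with a threshold of 0.05. Each gene was represented by its brightest tested probe. Fits of Cd34 use 29 animals. The code was tested on simulated data.

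All 10 genes are named in each comparison; from other lists, up to 4 genes that passed are named, or the 2 with the smallest p, and for likeness the 5 genes with the highest r. The genes and lists were chosen with earlier results of these data known. Nothing in the labels says how samples were prepared beyond 1 animal each, so p-values measure the spread between these animals. The alternatives were other background corrections and normalizations, probe filters, block terms, single control runs and leaving out each animal.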

Additional observations from a re-analysis of the deposited data

Results flagged for a closer look

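Across 60 sets of 4 to 6 animals (each gene in each run), 3 held an animal far from the others of its run, where chance gives about 1 in 20. The log2 ratio of Cd34 in control animal 552 was -2.60, with the nearest of control run 1 at -2.94. Cd34 in exposed animal 176 was -4.04, with the nearest of exposed run 1 at -3.36, and without this animal Cd34 was no longer called in that run. Kdr in control animal 595 was 3.43, with the nearest of control run 3 at 4.30.

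Exposed runs differed from each other by limma's test of the difference itself. Cd34 was lower in run 1 than in run 2 (-0.58, adjusted p = 0.0195). Eng was lower in run 1 than in run 2 (-0.52, adjusted p = 0.00938) and than in run 3 (-0.47, adjusted p = 0.0284). What distinguishes the runs is not given in the labels.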

How the results depend on the processing

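No paired analysis was possible because the groups share no animal or replicate numbers, so animals could be matched only by slide, which was done with slide as a fixed term and within slides. Counts of the 10 genes called for exposed minus control, among control runs, and for exposed runs 2 and 3 were 0 under every alternative run. Among exposed runs the count was 2, and it was 1 with plain background subtraction, the scanner software's ratio or all probes, and 0 with median centring, Cy5 alone, slide as a fixed term, the position term, or without the 5 arrays of the older software version. With array weights it was 3, Stab1 being added (adjusted p = 0.0442). Leaving out 1 animal gave 0 to 3. For exposed run 1 against controls the count was 2. It was 1 with plain subtraction, all probes, no slide block, scan day as the block, control run 2 only, or without the older software, and 0 with median centring, Cy5 alone, slide fixed, the position term, control run 1 only or control run 3 only. Leaving out 1 animal gave 0 to 2. Pairwise differences between runs numbered 3, against 6 for probes above background on all arrays (where Pecam1 gives no value), 8 with array weights, 1 with slide fixed, and 0 with median centring, Cy5 alone, the position term or without the older software. Leaving out 1 animal gave 1 (without exposed 176) to 8 (without exposed 193). The cause was not tested.

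No called value changed sign. Cd34 in exposed run 1 was called under 41 of 48 alternatives (-0.58 to -0.30) and Eng under 29 of 48 (-0.45 to -0.20). Of those 48, 30 left out 1 animal each, and there Cd34 kept its call in 29 and Eng in 23. Most of the kept calls thus came from leaving out 1 animal, not from changes in processing. Over all 23607 probes, exposed run 1 had 378 higher and 754 lower calls. The split was 794 and 995 without background correction, 880 and 850 with plain subtraction, 128 and 46 with median centring, 978 and 1003 with the scanner's ratio, 821 and 823 in the authors' table, 522 and 344 in Cy5 alone. Low reference signal limits Lyve1, Cdh5, Tek and Kdr. Over the alternatives, the uncalled difference of exposed run 1 from the controls ranged from -0.95 to -0.40 for Lyve1 and from -1.01 to -0.04 for Cdh5. It ranged from -0.35 to 0.12 for Tek and from -0.63 to 0.38 for Kdr.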

Other observations

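The mean log2 ratio of the 10 genes, taken per animal as a description, ranged from 1.40 to 2.21 in exposed run 1, from 2.02 to 2.78 in run 2 and from 2.10 to 2.46 in run 3. Controls with all 10 values ranged from 1.56 to 2.61.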
